A study of Mus musculus with 18 samples.

Results

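The 9 genes followed here, Adgre1, Cx3cr1, Ms4a7, Cd68, Lyz2, F13a1, C1qa, C1qb and C1qc, are widely used to recognise macrophages and related mononuclear phagocytes. They are the rows of a raw count table of 54838 genes whose Ensembl identifiers carry those symbols in GENCODE M21. They were taken by symbol with no cut-off on their values. The members and the gene lists used below were, however, chosen with earlier results of these data known. All 9 were found, and all 9 passed the filter on low counts. Adgre1, Cd68, Cx3cr1 and Ms4a7 passed it through the sorted-cell libraries, since bone marrow held few reads of them. For Adgre1 and Cd68 those are the libraries in which they were higher.

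The libraries came from wild-type C57BL/6 mice, with no ages or sexes used here. MDSC, or myeloid-derived suppressor cells, are named for their action on T cells; they were grown from bone marrow for 5 days in vitro and sorted either as CD11b-high Ly6G-high Ly6C-intermediate or as CD11b-high Ly6G-negative Ly6C-high cells, plated, and collected the next day after cycloheximide, which holds ribosomes on mRNA. The libraries titled LY6G and LY6C are read here as those 2 sorts, and the source titled BM was unsorted femoral marrow of 3 mice after lysis of red cells. From each source total RNA and polysomal RNA, the mRNA carried by several ribosomes at the bottom of a sucrose gradient, were sequenced in 3 biological replicates, giving 6 groups and 18 libraries. The marrow was taken directly and the MDSC were cultured, so sort and culture cannot be told apart when MDSC are compared with marrow. Treatment of the marrow with cycloheximide before lysis is not stated.

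Macrophages are tissue phagocytes that arise from embryonic precursors or from blood monocytes, which bone marrow makes from precursors shared with neutrophils. Their identity is read from molecules that serve the work of engulfing and digesting cells and microbes: surface receptors, lysosomal proteins and secreted opsonins. Adgre1 encodes the F4/80 antigen, an adhesion G protein-coupled receptor. Cx3cr1 encodes the receptor for fractalkine, and Ms4a7 a membrane protein of the MS4A family. Cd68 encodes a heavily glycosylated protein of the lysosome and endosome, and Lyz2 lysozyme, which cleaves bacterial cell walls and is also made by monocytes and neutrophils. F13a1 encodes the A subunit of coagulation factor XIII, a transglutaminase of monocytes, macrophages, megakaryocytes and platelets. C1qa, C1qb and C1qc encode the A, B and C chains of C1q, which assemble together and start the classical complement pathway.

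On GRCm38 the 3 C1q genes lie next to each other on the minus strand of chromosome 4, C1qb at chr4:136880129-136886187, C1qc at chr4:136889804-136893065 and C1qa at chr4:136895917-136898803. Adgre1 lies at chr17:57358691-57483527 on the plus strand. The remaining genes are on minus strands, Cx3cr1 at chr9:119901616-120069879, Ms4a7 at chr19:11321039-11336146, Cd68 at chr11:69664213-69666153, Lyz2 at chr10:117277331-117282321 and F13a1 at chr13:36867178-37050244. Counts were deposited per gene, and how reads were assigned to genes is not given. The Cx3cr1 model spans several other genes, and the antisense gene Gm33858 shares exon sequence with it and held 197 counts in all 18 libraries, so with the strand setting of the counting not given, reads of that pair cannot be told apart. F13a1 also shares exon sequence with an antisense gene, Gm30489, which held 0 counts.

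The sequences around the transcription starts are shown for 4 members: Cd68, which was higher in the sorted cells than in bone marrow, F13a1, which was lower, and the neighbours C1qb and C1qc, whose differences from bone marrow passed the test in no comparison. Each is a stretch of 300 bases across a RefSeq start on GRCm38.p6, minus strand, written 5′ to 3′. Capitals mark GAGGAA, the core of the site bound by PU.1, the transcription factor that macrophages require, on either strand, so that TTCCTC marks a match on the other strand.
Cd68, chr11:69666121-69666420: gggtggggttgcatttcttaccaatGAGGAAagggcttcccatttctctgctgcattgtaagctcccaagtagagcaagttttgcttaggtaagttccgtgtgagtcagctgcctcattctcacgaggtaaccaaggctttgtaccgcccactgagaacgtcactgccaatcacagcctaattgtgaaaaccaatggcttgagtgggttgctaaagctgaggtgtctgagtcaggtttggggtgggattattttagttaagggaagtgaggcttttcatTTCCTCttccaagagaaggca
F13a1, chr13:37050195-37050494: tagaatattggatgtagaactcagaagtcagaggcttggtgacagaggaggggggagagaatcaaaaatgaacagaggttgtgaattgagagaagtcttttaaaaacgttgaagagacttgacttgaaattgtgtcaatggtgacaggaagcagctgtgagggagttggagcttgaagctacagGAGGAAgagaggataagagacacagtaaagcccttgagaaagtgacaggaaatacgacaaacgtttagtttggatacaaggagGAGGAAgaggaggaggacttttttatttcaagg
C1qb, chr4:136886151-136886450: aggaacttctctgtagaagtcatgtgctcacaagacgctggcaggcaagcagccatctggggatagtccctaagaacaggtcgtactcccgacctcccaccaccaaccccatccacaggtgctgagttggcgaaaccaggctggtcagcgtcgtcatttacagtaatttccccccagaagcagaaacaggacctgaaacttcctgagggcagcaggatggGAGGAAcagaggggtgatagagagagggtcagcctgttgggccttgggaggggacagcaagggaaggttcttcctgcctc
C1qc, chr4:136892865-136893164: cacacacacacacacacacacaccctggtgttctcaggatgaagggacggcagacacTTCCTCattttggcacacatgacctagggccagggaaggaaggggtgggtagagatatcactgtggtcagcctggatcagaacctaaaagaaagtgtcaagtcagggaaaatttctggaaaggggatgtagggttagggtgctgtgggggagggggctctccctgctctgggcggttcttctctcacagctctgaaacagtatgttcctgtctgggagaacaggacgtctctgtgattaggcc

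Of the 9 members, 7 have an entry in the promoter table, F13a1 and Ms4a7 with 2 starts each. The GAGGAA motif was found in 2 places for Cd68, in 2 for the F13a1 start printed above and in 1 each for C1qb and C1qc. It was found in 1 place at the other F13a1 start and at 1 of both Ms4a7 starts, and in none for Lyz2 and Cx3cr1. Of the 32851 promoter stretches listed there, 28.3% hold at least 1 match, so its presence is common. Whether the motif has a part in the level of any member was not tested.

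Lyz2 has a near copy, Lyz1, beside it on chromosome 10, which Paneth cells of the intestine use. The first 150 coding bases of both are given, from GENCODE M21 transcripts on GRCm38, because reads of the pair have to be told apart at the differing bases, which are in capitals and number 14 in this stretch.
Lyz2: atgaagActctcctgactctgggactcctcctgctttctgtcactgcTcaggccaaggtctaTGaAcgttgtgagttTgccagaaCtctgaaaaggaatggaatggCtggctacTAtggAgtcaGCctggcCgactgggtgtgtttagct
Lyz1: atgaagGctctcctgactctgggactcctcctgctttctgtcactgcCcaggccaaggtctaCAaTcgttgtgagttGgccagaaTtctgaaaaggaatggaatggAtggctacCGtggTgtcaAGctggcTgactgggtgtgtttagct
Over the 444 coding bases 422 were identical (95%), and 15.4% of the 50-base windows of the Lyz2 transcript occur unchanged in Lyz1. Lyz1 held 0 counts in every bone marrow library and a mean of 0.299 ± 0.0628 CPM (counts scaled to a fixed library total; SD, n = 3) in LY6G polysomal RNA, its highest group, against 1280 ± 74.7 CPM for Lyz2 there. No source used here says how reads that fit both genes were counted.

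Levels are given in CPM of a library total scaled by TMM, a factor that sets most genes equal between libraries. Library totals ranged from 8559897 to 26225431 counts. Protein-coding genes, with Lars2 left out, took 37.3 to 94.6% of them in sorted cells. In bone marrow they took 1.83 to 3.72% in polysomal RNA and 0.249 to 0.323% in total RNA. One CPM therefore stood for 18 to 110 counts in sorted cells, 1.73 to 3.51 in bone marrow polysomal RNA and 0.472 to 0.611 in bone marrow total RNA, and every statement on the last group rests on few reads. Bone marrow held other cells as labelled: erythroid markers summed to 390 to 1070 CPM there against at most 7.44 in sorted cells, and stroma and endothelium markers to 2020 to 6880 against at most 12. In these bulk samples fewer cells of a type and less RNA per cell cannot be told apart. Among transcripts of the sorting antigens, Ly6g averaged 4.03 ± 4.07 CPM in LY6G and 3.38 ± 1.34 in LY6C total RNA, with overlap. Ly6c2 was 58.3 ± 10.8 and 84.2 ± 9.2 CPM there, without overlap, and 92.8 ± 26.7 and 283 ± 290 CPM in polysomal RNA, with overlap. Its log2 difference of LY6G from LY6C was -0.53 ± 0.48 (edgeR adjusted p = 1) in total and -1.61 ± 0.49 (adjusted p = 0.841) in polysomal RNA, the direction of the sort labels without passing the test, and the latter was -0.33 without LY6C replicate 6. For Itgam, which encodes CD11b, the total RNA means were 52.4 ± 8.32 (LY6G) and 42.7 ± 10.3 CPM (LY6C), and Ly6c1 stayed below 1 CPM on average in every sorted group. Neutrophil markers were abundant in every group, with sums of 752 to 4720 CPM in sorted cells and 818 to 2800 in bone marrow.

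Set against bone marrow, the members of the sorted cells differed in direction. The lysosomal genes Lyz2 and Cd68 and the receptor gene Adgre1 were higher in both MDSC sorts than in bone marrow, in total and in polysomal RNA, by 11.8- to 40.1-fold in the fit. F13a1 went the other way, 5.98- to 17.2-fold lower in the sorted cells. C1qa was lower in LY6G polysomal RNA, and the levels of C1qb, C1qc, Cx3cr1 and Ms4a7 passed the test in no comparison. The test throughout was edgeR's quasi-likelihood F test on all 18 libraries with Benjamini-Hochberg adjustment over 14181 genes, two-sided, with a threshold of 0.05 on the adjusted p.

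**Figure D1:**
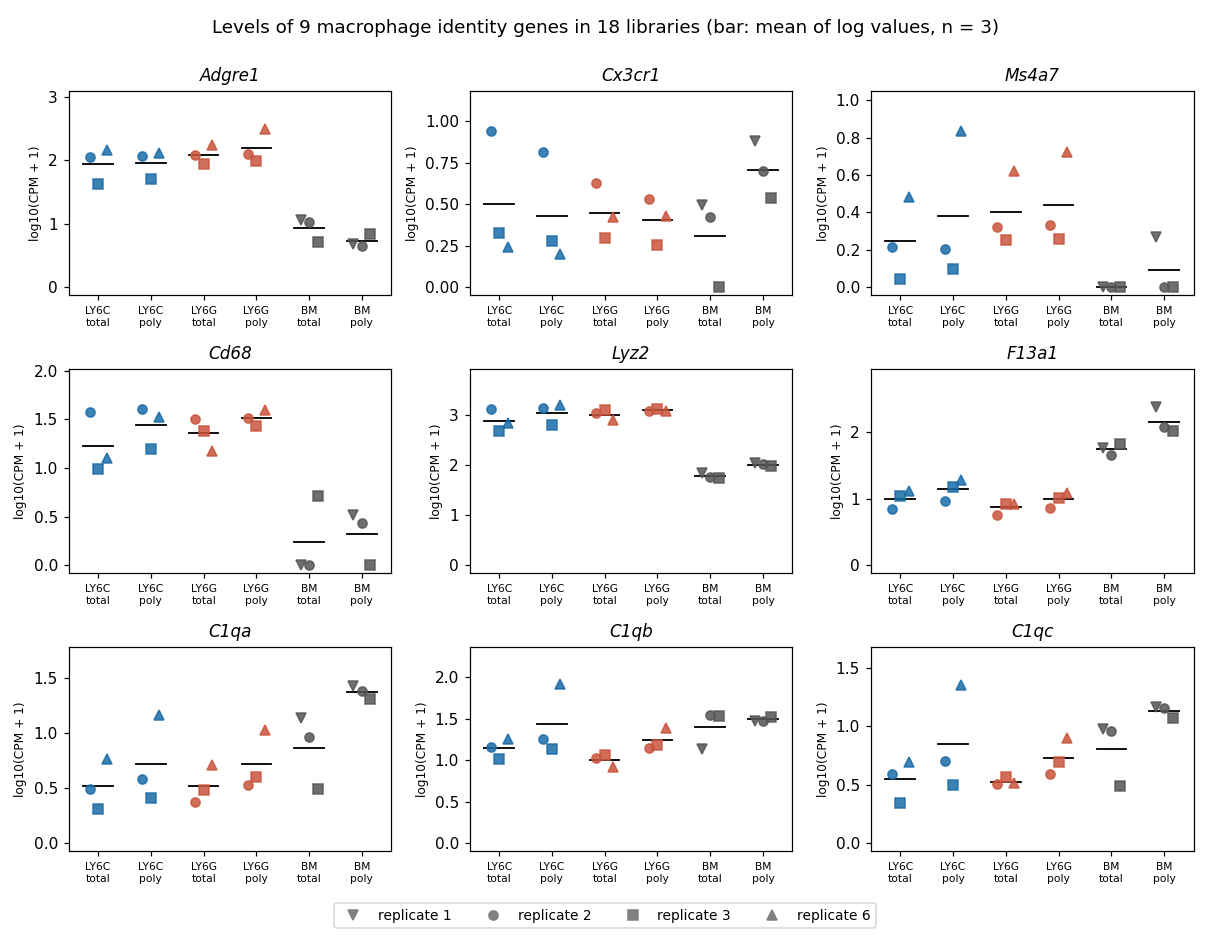
Level of each gene in each library as log10(CPM + 1), by group (LY6C, LY6G and BM, total and polysomal RNA); symbols give the replicate number and bars the mean of the 3 log values. Adgre1, Cd68 and Lyz2 stand above bone marrow in every sorted library and F13a1 below it, and the C1q and Ms4a7 points of replicate 6 lie highest in LY6C polysomal RNA. Of all genes, 34.7 to 54.2% were higher and 6.14 to 19.5% lower than bone marrow without overlap, depending on the comparison.

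In LY6C against bone marrow total RNA 4 of 9 members passed, 3 higher and 1 lower, where 27.9% of all genes passed (20.5% higher and 7.4% lower). Again 4 passed in polysomal RNA, 3 higher and 1 lower, against 31.4% of all genes (20.2% higher and 11.2% lower). The LY6G sort gave 4 of 9 in total RNA, 3 higher and 1 lower, against 30.8% (21.5% higher and 9.39% lower), and 5 of 9 in polysomal RNA, 3 higher and 2 lower, against 37.5% (22.1% higher and 15.3% lower). Read against these shares of all genes, the number of members that passed is not a result about them. Separation of the libraries was common too. In total RNA 48.5% of all genes were higher and 6.14% lower than bone marrow without overlap in LY6C, and 54.2% and 8.45% in LY6G. In polysomal RNA these shares were 34.7% and 14.0%, and 41.1% and 19.5%. Of the 9 members, 4 were higher and 1 lower, 4 and 2, 3 and 2, and 3 and 5, in the same order. The median log2 difference of the 9 was 0.32 in LY6C and -0.83 in LY6G polysomal RNA, beside 0.52 and 0.45 over all genes. For total RNA the medians were 1.37 and 0.62 as fitted beside 1.64 and 1.63 over all genes, and 0.18 and -0.39 over the 8 members other than Ms4a7, which has no fold there. The 4 comparisons with bone marrow share its libraries, total or polysomal, and are given side by side.

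The median over all genes was itself shifted in total RNA, by an amount that differed with the scaling and more with the fitting tool: for LY6C it was 1.64 with edgeR and its TMM factors, 1.36 with edgeR and median-ratio factors, 0.18 with DESeq2 and 0.05 with limma voom. Adgre1 itself was 3.33 both with DESeq2 and with median-ratio factors in edgeR. Relative to that median, over the 4 fits that kept Lyz2 and the 5 tried for the others, Lyz2 was 2.19 to 3.92 higher in LY6C total RNA, Adgre1 1.94 to 3.46, Cd68 2.25 to 3.54, and F13a1 lay between -4.23 and -2.91. In polysomal RNA the same ranges for LY6C were narrower, 3.04 to 3.2 for Lyz2, 3.96 to 4.14 for Adgre1, 3.9 to 4.64 for Cd68 and -4.05 to -3.72 for F13a1. No direction of these 4 genes flipped.

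**Figure D2:**
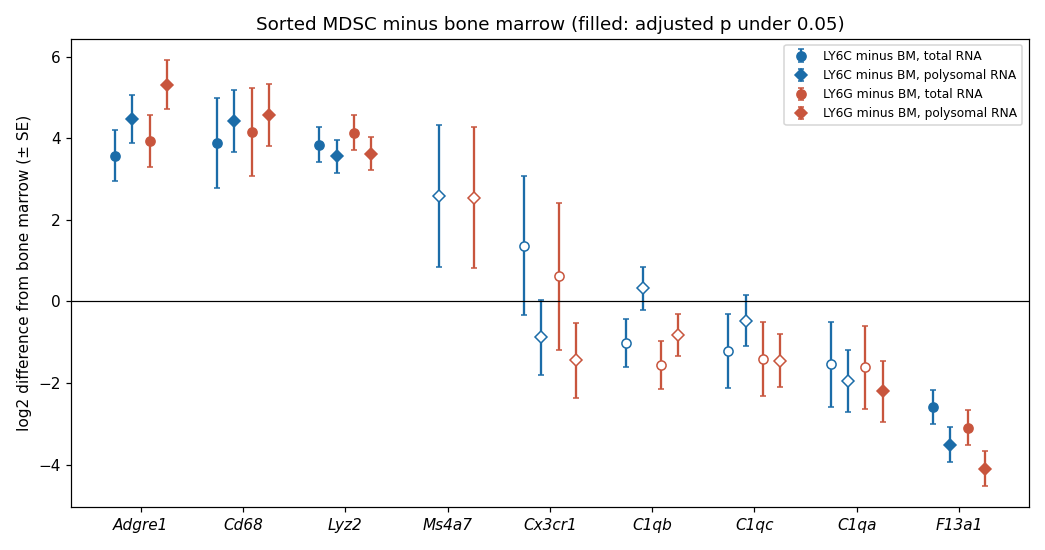
Log2 difference from bone marrow (y axis) for each gene, as fitted by edgeR, with bars of 1 SE; circles are total and diamonds polysomal RNA, blue LY6C and red LY6G, and filled symbols have an adjusted p under 0.05. Adgre1, Cd68 and Lyz2 are filled above 0 in all 4 comparisons and F13a1 is filled below 0, while the C1q chains lie mostly between; Ms4a7 is left out in total RNA, where bone marrow held 0 counts.

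Adgre1 had the highest level per kilobase among the receptor genes of the set. In total RNA it stood at 112, 41.1 and 144 CPM in LY6C replicates 2, 3 and 6, at 120, 86.6 and 173 CPM in LY6G, and at 10.6, 9.82 and 4.13 CPM in bone marrow replicates 1, 2 and 3. In polysomal RNA the values were 117, 49.5 and 130 CPM in LY6C, 124, 98.5 and 310 in LY6G and 3.71, 3.47 and 5.97 in bone marrow. Every sorted library lay above every bone marrow library, and replicate 3 was the lowest of both sorts in both fractions. The log2 difference from bone marrow was 3.58 ± 0.63 (SE; edgeR adjusted p = 0.000264) for LY6C and 3.94 ± 0.63 (adjusted p = 9.22e-05) for LY6G in total RNA. In polysomal RNA it was 4.48 ± 0.59 (adjusted p = 1.13e-05) and 5.32 ± 0.60 (adjusted p = 1.81e-06). The bone marrow total RNA value rests on 13 counts in all, and the pooled ratio of LY6C to it, 13.1, has a 95% exact interval of 7.64 to 24.6. Such intervals and floors cover counting error only.

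Cx3cr1, which marks monocytes that patrol vessels and many resident macrophages, was low everywhere. Its total RNA values were 7.73, 1.11 and 0.748 CPM in LY6C, 3.25, 0.983 and 1.63 in LY6G and 2.12, 1.64 and 0 in bone marrow. In polysomal RNA they were 5.57, 0.889 and 0.585 CPM in LY6C, 2.41, 0.791 and 1.69 in LY6G and 6.56, 4.05 and 2.46 in bone marrow. Replicate 2 was the highest in both sorts and both fractions, and the sorted and bone marrow values overlapped except in LY6G polysomal RNA, where every value was below bone marrow. That difference was -1.44 ± 0.92 (adjusted p = 0.229), and for LY6C it was -0.88 ± 0.92 (adjusted p = 0.484). Bone marrow total RNA held 2 counts, and the pooled ratios to it were 4.58 (95% exact interval 1.26 to 37.9) for LY6C and 1.64 (0.452 to 13.6) for LY6G, with adjusted p of 0.589 and 0.786 in edgeR.

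Ms4a7 was low in every group and had the lowest mean CPM of the 9 in 5 of 6, LY6G polysomal RNA being the exception, where Cx3cr1 averaged 1.63 CPM and Ms4a7 2.09. It stood at 0.635, 0.111 and 2.04 CPM in LY6C and 1.11, 0.793 and 3.2 in LY6G total RNA, and at 0.604, 0.254 and 5.85 and 1.14, 0.81 and 4.32 CPM in polysomal RNA. Replicate 6 was the highest and replicate 3 the lowest in all 4 of these groups. Bone marrow held 0 counts in total RNA, which allows up to 1.91 CPM over the group, so a difference there was not detectable at this depth. In bone marrow polysomal RNA 1 library of 3 held reads, 3 counts at 0.856 CPM, and the pooled ratio to it was 3.44 (95% exact interval 1.16 to 16.8) for LY6C and 5.41 (1.84 to 26.3) for LY6G. Neither passed the test (log2 difference 2.59 ± 1.74, adjusted p = 0.279, and 2.54 ± 1.73, adjusted p = 0.264). Blocking on the replicate number put the LY6G difference at 6.23 with an adjusted p of 0.0239, a fitted value against 3 counts.

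Lyz2 had the highest level per kilobase of the 9 in all 6 groups, and the highest CPM in 5, F13a1 exceeding it in bone marrow polysomal RNA. Its total RNA values were 1370, 498 and 718 CPM in LY6C, 1120, 1260 and 801 in LY6G and 69.9, 57.3 and 53.7 in bone marrow. Polysomal RNA gave 1400, 641 and 1620 CPM in LY6C, 1220, 1360 and 1240 in LY6G and 108, 106 and 95.2 in bone marrow. Every sorted library was above every bone marrow library, and the spread was widest in LY6C, where replicate 3 was lowest in both fractions. Log2 differences from bone marrow were 3.84 ± 0.43 (adjusted p = 2.42e-06) in LY6C and 4.14 ± 0.43 (adjusted p = 9.47e-07) in LY6G total RNA. In polysomal RNA they were 3.56 ± 0.41 (adjusted p = 3.07e-06) and 3.63 ± 0.41 (adjusted p = 1.84e-06). Neutrophils also make lysozyme, and the neutrophil markers given above overlapped in sum between sorted cells and bone marrow but moved in both directions. Of 16, 5 were higher and 0 lower in LY6C and 5 and 2 in LY6G total RNA, and 2 and 1, and 2 and 4, in polysomal RNA. The shares over all genes, in the same order, were 20.5% higher and 7.4% lower, 21.5% and 9.39%, 20.2% and 11.2%, and 22.1% and 15.3%. Mmp8, a collagenase of neutrophil granules, was 151 ± 127 CPM in LY6C and 2.49 ± 0.683 in bone marrow total RNA (log2 difference 5.89 ± 0.70, adjusted p = 4.79e-06), and Lcn2, which encodes lipocalin 2, was 183 ± 21.4 and 15.7 ± 2.74 CPM (3.53 ± 0.56, adjusted p = 0.000105). Retnlg, a resistin-like protein of neutrophils, was 2.23 ± 0.889 CPM in LY6C and 48.3 ± 18.2 in bone marrow polysomal RNA (-4.45 ± 0.65, adjusted p = 4.88e-05). The part of these markers in the Lyz2 result was not tested.

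Cd68, the other lysosomal gene, was much lower in level and as different from bone marrow. In total RNA it stood at 36.7, 8.76 and 11.6 CPM in LY6C and at 31, 23.3 and 14.1 in LY6G, while bone marrow was at 0, 0 and 4.13. In polysomal RNA it was 39.4, 14.8 and 32.4 CPM in LY6C, 31.6, 26.2 and 38.3 in LY6G and 2.28, 1.73 and 0 in bone marrow. The groups did not overlap. For polysomal RNA the log2 difference was 4.42 ± 0.76 (adjusted p = 0.000239) in LY6C and 4.57 ± 0.76 (adjusted p = 0.00014) in LY6G. In total RNA it was 3.89 ± 1.10 (adjusted p = 0.0122) and 4.15 ± 1.08 (adjusted p = 0.00669), against 2 bone marrow counts, with pooled ratios of 23 (95% exact interval 6.38 to 190) and 18.3 (5.07 to 151). The LY6C call in total RNA was lost without bone marrow replicate 1 (3.31, adjusted p = 0.0729) or replicate 2 (3.15, adjusted p = 0.094), and the LY6G call without replicate 2 (3.40, adjusted p = 0.0611).

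F13a1 was lower in sorted cells in all 4 comparisons with bone marrow. It stood at 6.07, 10.1 and 11.8 CPM in LY6C, 4.74, 7.29 and 7.4 in LY6G and 57.2, 44.2 and 66.1 in bone marrow total RNA. In polysomal RNA it was 8.13, 14.1 and 18.3 CPM in LY6C, 6.33, 9.23 and 11.2 in LY6G and 239, 117 and 103 in bone marrow. All bone marrow libraries were above 40 CPM and all sorted libraries below 20 CPM, with bone marrow replicate 1 the highest in polysomal RNA. The log2 difference from bone marrow was -2.58 ± 0.42 (adjusted p = 0.000135) in LY6C and -3.10 ± 0.43 (adjusted p = 1.96e-05) in LY6G total RNA. It was -3.51 ± 0.42 (adjusted p = 3.89e-06) and -4.10 ± 0.43 (adjusted p = 6.42e-07) in polysomal RNA. Because megakaryocytes and platelets carry factor XIII A subunit too, their 8 markers belong beside these values: their sum was 140 to 318 CPM in bone marrow total RNA and 223 to 308 in polysomal RNA, against 24.9 to 116 in LY6C and 62.4 to 104 in LY6G total RNA and 28.4 to 374 and 71.1 to 240 in polysomal RNA. Of these, Itga2b, the platelet integrin chain, was 64.5 ± 13.8 CPM in bone marrow and 2.16 ± 1.64 in LY6C total RNA (log2 difference -4.92 ± 0.79, adjusted p = 0.0002), whereas Pf4, platelet factor 4, was 13.2 ± 11.5 and 36.0 ± 34.7 CPM. In bone marrow total RNA 2 of the 8 were at 0 in all libraries. Of the 6 tested, 3 were lower in total and 4 in polysomal RNA of each sort, and 0 higher. Over all genes 7.4% and 9.39% were lower in total RNA of LY6C and LY6G, and 11.2% and 15.3% in polysomal RNA. Between 20.2 and 22.1% of all genes were higher. The part of these markers in the F13a1 result was not tested.

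Among the C1q chains replicate 6 stood apart in polysomal RNA of the sorted cells. In polysomal RNA, C1qa stood at 26, 23.1 and 19.3 CPM in bone marrow, at 2.4, 2.97 and 9.57 in LY6G and at 2.81, 1.57 and 13.6 in LY6C. Replicate 6 of each sort was several times its 2 companions, yet no sorted value reached the bone marrow range. The log2 difference was -2.20 ± 0.75 (adjusted p = 0.0287) for LY6G and -1.95 ± 0.75 (adjusted p = 0.0564) for LY6C. The LY6G call was lost when LY6G replicate 2 (-1.84, adjusted p = 0.104), LY6G replicate 3 (-1.91, adjusted p = 0.0994), bone marrow replicate 1 (-2.07, adjusted p = 0.0732) or bone marrow replicate 2 (-2.14, adjusted p = 0.0575) was left out. The LY6C difference passed in 7 of 8 other settings, among them the replicate block (-2.43, adjusted p = 5.02e-05), and without LY6C replicate 6 it was -3.33 (adjusted p = 0.00208).

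Total RNA gave C1qa at 2.07, 1.05 and 4.78 CPM in LY6C, 1.36, 2.05 and 4.09 in LY6G and 12.7, 8.18 and 2.07 in bone marrow, where the gene held 12 counts in all. These groups overlapped. The differences from bone marrow were -1.54 ± 1.04 (adjusted p = 0.301) for LY6C and -1.62 ± 1.03 (adjusted p = 0.259) for LY6G.

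C1qb, the most abundant chain, was 13.4, 9.37 and 17 CPM in LY6C, 9.59, 10.7 and 7.38 in LY6G and 12.7, 34.4 and 33.1 in bone marrow total RNA. Its polysomal values were 17.3, 12.8 and 83.3 CPM in LY6C, 12.9, 14.4 and 23.8 in LY6G and 29.1, 28.9 and 32.7 in bone marrow. LY6C replicate 6 was thus above bone marrow in polysomal RNA while the other 2 were below it, and all LY6G values were below bone marrow in both fractions. The LY6G difference was -1.55 ± 0.59 (adjusted p = 0.0512) in total RNA, which passed in 6 of 8 other settings, and -0.83 ± 0.52 (adjusted p = 0.219) in polysomal RNA. For LY6C it was -1.02 ± 0.58 (adjusted p = 0.208) in total and 0.32 ± 0.52 (adjusted p = 0.661) in polysomal RNA, the latter turning to -0.98 (adjusted p = 0.0716) without replicate 6.

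C1qc followed at lower levels. Its polysomal values were 4.04, 2.13 and 21.5 CPM in LY6C, 2.91, 3.98 and 6.97 in LY6G and 13.7, 13.3 and 10.9 in bone marrow. Here too LY6C replicate 6 lay above bone marrow and every LY6G library below. The LY6G difference was -1.45 ± 0.64 (adjusted p = 0.0814), or -1.51 (adjusted p = 0.0203) with the replicate block, and it passed in 5 of 8 other settings. The LY6C difference was -0.47 ± 0.63 (adjusted p = 0.595), and -1.99 (adjusted p = 0.00808) without replicate 6. Total RNA gave 2.94, 1.22 and 3.99 CPM in LY6C, 2.18, 2.66 and 2.29 in LY6G and 8.47, 8.18 and 2.07 in bone marrow, with differences of -1.21 ± 0.91 (adjusted p = 0.355) and -1.41 ± 0.91 (adjusted p = 0.259).

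C1q is assembled from equal numbers of the 3 chains, so their transcripts were also set against each other, as shares of the summed level per kilobase of exon. In bone marrow polysomal RNA the shares were 49.5% ± 5.18 for C1qb, 38.9% ± 4.2 for C1qa and 11.6% ± 1.06 for C1qc (SD, n = 3). In LY6C polysomal RNA they were 78.2% ± 3.11, 12.2% ± 1.43 and 9.61% ± 1.73, and in LY6G 70.5% ± 6.59, 19.0% ± 6.53 and 10.5% ± 0.87. C1qb thus took the largest mean share in all 3 sources, while the C1qa share was higher in bone marrow than in any sorted polysomal library. C1qb shares ranged from 63.1 to 81.8% in those 6 sorted libraries and from 45.5 to 55.4% in bone marrow. With 3 against 3 libraries a two-sided exact permutation test cannot go below p = 0.1, which it gave for the C1qa and the C1qb share in both sorts (adjusted p = 0.257 over 18 tests). Bone marrow total RNA held 65 counts of the 3 chains, and its shares, 68.1% ± 25.0 for C1qb and 22.4% ± 19.0 for C1qa, overlapped with those of sorted cells. The largest C1qa share of a sorted library was 33.0%, in LY6G total RNA of replicate 6.

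**Figure D3:**
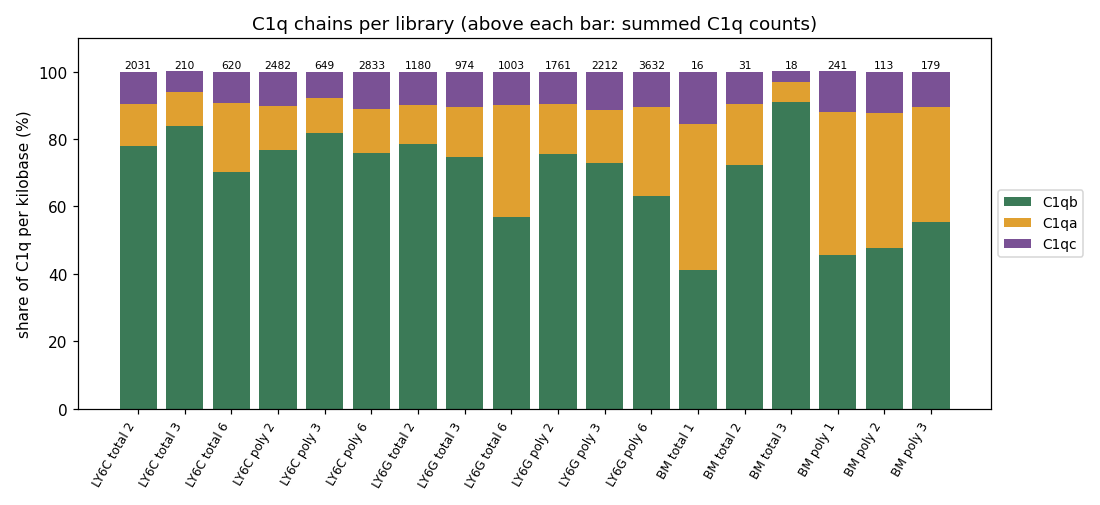
Share of each C1q chain (y axis, percent of the summed level per kilobase) in each of the 18 libraries, as stacked bars, with the summed C1q counts above. C1qa takes 34.2 to 42.5% in the 3 bone marrow polysomal libraries and 10.5 to 26.5% in the 6 sorted polysomal ones; bone marrow total bars rest on 16 to 31 counts each.

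Per kilobase of exon, the order of the members differed between sorted cells and bone marrow. In LY6C total RNA Lyz2 led with 655 ± 344 CPM per kilobase, then Adgre1 with 30.5 ± 16.2, Cd68 with 15.1 ± 12.2 and C1qb with 12.2 ± 3.51, neighbours that overlapped in spread. C1qa followed with 2.53 ± 1.85, C1qc with 1.41 ± 0.724 and F13a1 with 1.39 ± 0.44, then Cx3cr1 with 0.709 ± 0.872 and Ms4a7 with 0.208 ± 0.224. In bone marrow polysomal RNA Lyz2 again came first, with 78.3 ± 5.17 CPM per kilobase, followed by C1qb with 27.8 ± 1.95, F13a1 with 22.7 ± 11.1 and C1qa with 21.9 ± 3.2, and the F13a1 libraries spanned the values of C1qb and C1qa. C1qc stood at 6.54 ± 0.785, Adgre1 at 1.35 ± 0.427, Cd68 at 1.07 ± 0.948, Cx3cr1 at 0.967 ± 0.459 and Ms4a7 at 0.0641 ± 0.111 there. Adgre1 and Cd68 thus came directly after Lyz2 in LY6C total RNA and behind 5 members in bone marrow polysomal RNA, which are unlike fractions. In LY6C polysomal RNA C1qb averaged 34.7 ± 36.3, above Adgre1 at 30.6 ± 13.4 and Cd68 at 22.9 ± 10.1, with overlap in spread. In bone marrow total RNA Adgre1, at 2.53 ± 1.09, and Cd68, at 1.1 ± 1.9, again averaged below the same 5 members.

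Between the sorts no member passed the edgeR test in either fraction, and neither did any other gene (0.0% in total and 0.0% in polysomal RNA). At an unadjusted p under 0.05 there were 0 members of 9 in total RNA, with 565 genes in all, and 1 in polysomal RNA, with 833 genes in all; DESeq2 called 0 genes in both fractions, and limma voom 1 in total RNA, no member, and 0 in polysomal RNA. The 1 member was C1qb, at -1.15 ± 0.51 in LY6G against LY6C polysomal RNA (unadjusted p = 0.0373, adjusted p = 0.841), and without LY6C replicate 6 it was 0.18. Within a replicate number, Adgre1 was higher in LY6G in 6 of 6 pairs, which 11.3% of genes were, with log2 differences of 0.35 ± 0.48 (adjusted p = 1) in total and 0.84 ± 0.48 (adjusted p = 0.845) in polysomal RNA. F13a1 was lower in LY6G in 6 of 6 pairs, which 14.0% of genes were, by -0.52 ± 0.38 (adjusted p = 1) and -0.59 ± 0.38 (adjusted p = 0.849). These pairs share replicates between fractions and are not independent of each other.

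Polysomal against total RNA likewise gave no call among the members or any other gene in LY6C (0.0%) or LY6G (0.0%) with edgeR, with 2 members of 9 under an unadjusted p of 0.05 in LY6C, with 433 genes in all, and 0 in LY6G, with 254 in all; DESeq2 called 6 genes in LY6C and 4 in LY6G and limma voom 0 and 100, none of them a member. Those 2 were C1qb (1.51 ± 0.52, unadjusted p = 0.00896, adjusted p = 1) and C1qc (1.74 ± 0.63, unadjusted p = 0.0117, adjusted p = 1), whose fitted differences in LY6G were 0.88 ± 0.51 and 0.96 ± 0.61. For C1qa the differences were 1.17 ± 0.73 in LY6C and 0.99 ± 0.72 in LY6G, and the first was -0.24 without LY6C polysomal replicate 6. In direction, 6 of 9 members, Cd68, Lyz2, F13a1, C1qa, C1qb and C1qc, were higher in polysomal RNA in 6 of 6 pairs, which 16.8% of all genes were. Adgre1 and Ms4a7 were higher in 5 of 6, and Cx3cr1 lower in 5 of 6. The pairs share replicate numbers between the sorts and are not independent of each other. Nor are the genes, since the C1q chains correlated with each other at 0.79 to 0.95 over the sorted libraries.

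**Figure D4:**
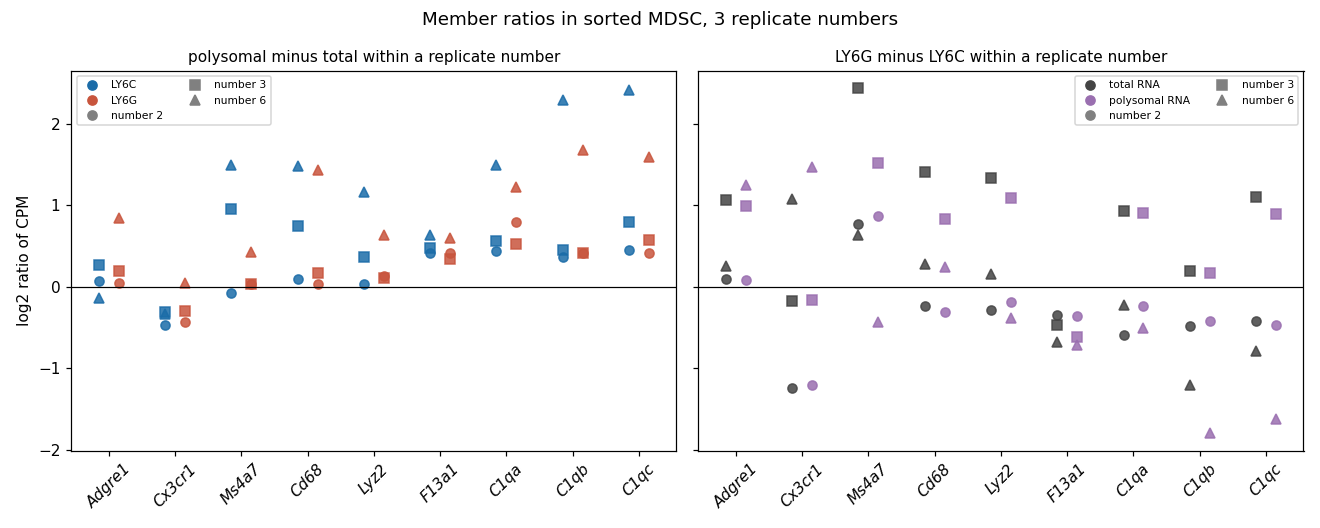
Log2 ratio of CPM (y axis) within each replicate number of the sorted cells, polysomal minus total RNA on the left (blue LY6C, red LY6G) and LY6G minus LY6C on the right (grey total, purple polysomal RNA), with symbols for numbers 2, 3 and 6. On the left all points of Cd68, Lyz2, F13a1 and the C1q chains lie above 0 and the highest belong to number 6; on the right all Adgre1 points lie above 0 and all F13a1 points below.

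In bone marrow 3.39% of genes passed between fractions and 0 of 9 members did with edgeR, with 1 member under an unadjusted p of 0.05 and none called by DESeq2 or limma voom. F13a1 was that member, at 1.46 ± 0.41 (unadjusted p = 0.00176, adjusted p = 0.0505), higher in polysomal than in total RNA in 3 of 3 libraries. It passed in 2 of 8 other settings, with the replicate block at 1.37 (adjusted p = 0.0104) and with genes of at least 50 counts in 3 libraries at 1.47 (adjusted p = 0.0426). When the polysomal against total difference was compared between sources, 0 of 9 members passed. Of all genes 0.0% passed for LY6G against LY6C, 0.338% for LY6C against bone marrow and 0.416% for LY6G against bone marrow. No member reached an unadjusted p under 0.05 in edgeR (lowest 0.0849, F13a1). DESeq2 and limma voom called none of the 9 there either. Errors were wide where bone marrow held few reads, as for Cx3cr1 in LY6C against bone marrow (-2.25 ± 1.9), so differences may have been missed.

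Several members varied widely between replicate numbers. Averaged over the sorts and fractions, the log2 level of Ms4a7 differed by 3.1 between the highest and the lowest number, Cx3cr1 by 2.15, C1qa by 1.97, Adgre1 by 1.46 and C1qc by 1.39, and the median range was 0.5 over 4294 genes averaging at least 10 CPM in sorted cells and 0.55 over 5513 genes of 1 to 10 CPM, the levels of Ms4a7, Cx3cr1, C1qa and C1qc. Lyz2, at 0.56, was near these medians. Number 6 stood above the mean by 1.71 for Ms4a7, 1.24 for C1qa, 0.81 for C1qc and 0.68 for Adgre1, whereas Cx3cr1 was high in number 2, by 1.38. The difference of the sorts averaged 0.97 for Ms4a7, 0.63 for Adgre1, -0.59 for C1qb and -0.53 for F13a1, beside a median size of 0.26 over the genes of at least 10 CPM and 0.29 over those of 1 to 10 CPM.

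Over the 12 sorted libraries genes among those with the most similar log2 CPM are named for each member out of 4237, as a description of libraries that share depth and replicate number. Adgre1 ran with Plbd2, which encodes a lysosomal protein, and Ggta1 (Pearson r 0.99 each). Cd68 ran with Cd44 and Rab18 (0.97 each), and Lyz2 with Bcl2a1d and Leprot (0.98 each) and Atp6v1b2 (0.95), a subunit of the vacuolar proton pump. Ms4a7 was closest to the chemokine genes Cxcl3 (0.99) and Pf4 (0.97) and to Hmox1 (0.97), which encodes heme oxygenase. Cx3cr1 ran with Rara (0.96), Fos (0.95) and Cd300a (0.94), and F13a1 with Armc5 and Hk1 (0.97 each). C1qb had Ghitm, Rtn4 and Anxa5 (0.99 each), C1qc Dync1i2 and Ass1 (0.99 each) and Psap (0.98), and C1qa Ddx24, Slc7a8 and Gbp7 (0.98 each). Among the members themselves Ms4a7 and Adgre1 correlated at 0.87, C1qa and Adgre1 at 0.73 and Cx3cr1 and F13a1 at -0.71.

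Other macrophage genes also lay on both sides of bone marrow. Of a list of 25, 21 were tested, and against bone marrow 11 were higher and 3 lower in LY6C polysomal RNA and 11 and 4 in LY6G (median log2 difference 1.94 and 2.27, beside 0.52 and 0.45 over all genes). Of all genes 20.2% were higher and 11.2% lower in the first of these comparisons and 22.1% and 15.3% in the second. In total RNA 6 were higher and 3 lower in LY6C and 7 and 3 in LY6G, with medians of 1.62 and 1.94 beside 1.64 and 1.63, where 20.5% and 21.5% of all genes were higher and 7.4% and 9.39% lower. Csf1r, the receptor for the growth factor on which macrophages depend, was 242 ± 107 CPM in LY6C and 243 ± 14 in LY6G against 3.72 ± 1.44 in bone marrow total RNA (log2 difference 5.99 ± 0.56, adjusted p = 2.59e-07, for LY6C). Gpnmb, a glycoprotein of lysosome-rich macrophages, was 63.4 ± 34.4 and 121 ± 46.6 CPM in polysomal RNA of LY6C and LY6G and 0.446 ± 0.545 in bone marrow. Among the lower genes of the list were Cd5l and Cd163, as F13a1 was. Marco, on the same list, went the other way in polysomal RNA. It averaged 14 ± 17.5 CPM in LY6C and 11.6 ± 8.79 in LY6G, where bone marrow held 0 counts. Cd5l, a secreted scavenger protein, was 10.3 ± 0.649 CPM in bone marrow polysomal RNA and 0.035 ± 0.0137 in LY6G (log2 difference -8.10 ± 1.02, adjusted p = 5.49e-06), and Cd163, the haptoglobin-hemoglobin receptor, was 16.3 ± 15.2 CPM in bone marrow and 0.0922 ± 0.137 in LY6C total RNA (-7.67 ± 1.14, adjusted p = 5.82e-05).

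Of 13 classical monocyte genes, all tested, 6 were higher and 0 lower in LY6C polysomal RNA and 7 and 1 in LY6G (median 1.69 and 1.72), and 7 and 0 in total RNA of each sort (median 4.20 and 3.27 as fitted, 2.79 and 2.87 with genes at 0 in bone marrow set to the floor of 3 counts and 2 without a fold left out). Over all genes the medians were 0.52 and 0.45 in polysomal and 1.64 and 1.63 in total RNA, with 20.2% and 22.1% higher and 11.2% and 15.3% lower in polysomal RNA of LY6C and LY6G, and 20.5% and 21.5% higher and 7.4% and 9.39% lower in total RNA. Vcan, a matrix proteoglycan of inflammatory monocytes, was 75.1 ± 29.8 CPM in LY6C and 1.29 ± 0.53 in bone marrow polysomal RNA (5.91 ± 0.50, adjusted p = 1.67e-07). Of 9 nonclassical monocyte genes tested, 4 were higher and 2 lower in LY6C and 4 and 3 in LY6G polysomal RNA (median 0.77 and 0.84). In total RNA 4 were higher and 0 lower, and 3 and 1 (median 1.27 and 1.23 as fitted, 1.18 and 0.86 with the floor). Nr4a1, the nuclear receptor needed for those monocytes, was 70.6 ± 27.1 against 7.34 ± 1.55 CPM in LY6C and bone marrow polysomal RNA (3.27 ± 0.56, adjusted p = 0.000182). Spn, on the same list, went the other way in LY6G against bone marrow polysomal RNA (log2 difference -1.5 ± 0.55).

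Among 15 macrophage transcription factors tested, 7 were higher and 1 lower in LY6C and 7 and 2 in LY6G polysomal RNA (median 1.57 and 0.89), and 6 and 0, and 7 and 1, in total RNA (median 2.09 and 1.86 as fitted, 1.61 and 1.73 with the floor). The shares of all genes were 20.2% higher and 11.2% lower for LY6C and 22.1% and 15.3% for LY6G in polysomal RNA (median 0.52 and 0.45), and 20.5% and 7.4%, and 21.5% and 9.39%, in total RNA (median 1.64 and 1.63). Cebpb was 229 ± 46.9 CPM in LY6C and 10.3 ± 9.64 in bone marrow total RNA (4.53 ± 0.51, adjusted p = 2.56e-06). Spi1, which encodes PU.1, was the only 1 of the 15 whose fraction difference changed between LY6C and bone marrow. It was 45.1 ± 15.2 CPM in total and 13 ± 1.31 in polysomal RNA of bone marrow, and 42.3 ± 12.4 and 51.1 ± 7.05 in LY6C (difference of differences 2.07 ± 0.44, adjusted p = 0.0462), a value that stayed between 1.87 and 2.33 but lost its call in 10 of 12 fits without 1 library and in 4 of 8 other settings (highest adjusted p 0.258). Bone marrow held 14 to 29 counts of Spi1 in each total RNA library. Egr1, Mitf and Tfec held 0 counts in bone marrow total RNA and averaged 218 ± 182, 15.4 ± 8.95 and 13.6 ± 2.3 CPM in LY6C total RNA.

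Of 18 complement genes tested other than the C1q chains, 11 were higher and 1 lower in LY6C and 10 and 2 in LY6G polysomal RNA (median 2.29 and 2.07), and 11 and 0, and 10 and 1, in total RNA (median 2.43 and 2.26 as fitted, 2.15 and 1.85 with the floor). Beside these stand 20.2% of all genes higher and 11.2% lower, and 22.1% and 15.3%, in polysomal RNA (median 0.52 and 0.45), and 20.5% and 7.4%, and 21.5% and 9.39%, in total RNA (median 1.64 and 1.63). Cfp, which encodes properdin, was 215 ± 73.1 CPM in LY6C and 16.8 ± 0.343 in bone marrow polysomal RNA (3.68 ± 0.41, adjusted p = 2.07e-06), and C5ar1, the receptor for C5a, was 58.0 ± 19.7 in LY6C and 7.16 ± 6.47 in bone marrow total RNA (3.04 ± 0.59, adjusted p = 0.000735). Of the MS4A family 11 relatives of Ms4a7 were tested, and Ms4a6d alone was higher in LY6C polysomal RNA, at 33.9 ± 41.7 CPM against 0.285 ± 0.494 in bone marrow (adjusted p = 0.00452 over all genes), where bone marrow held 3 counts; in LY6G 1 was higher and 2 were lower. The family's medians in polysomal RNA were 2.59 and 1.84 as fitted, and 1.62 and 0.33 with the floor. Over all genes they were 0.52 and 0.45, with 20.2% and 22.1% of genes higher and 11.2% and 15.3% lower. Total RNA of the family is not described, since 6 of the 11 held no read in a group. Among 11 paralogs and partners of the members, such as lysosomal membrane proteins and transglutaminases, 6 were higher and 1 lower in each comparison with bone marrow (polysomal median 2.31 and 2.18 as fitted, 2.12 and 2.04 with the floor), where 20.2 to 22.1% of all genes were higher and 7.4 to 15.3% lower. Lamp1, a lysosomal membrane protein like CD68, was 112 ± 30 CPM in LY6C and 14.6 ± 7.19 in bone marrow total RNA (2.91 ± 0.43, adjusted p = 5.06e-05).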

How the data were processed

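RNA of 18 mouse libraries was measured by stranded RNA-seq after ribosomal RNA depletion, per the labels' protocols. The authors deposited raw counts per Ensembl gene. FastQC, STAR 2.5.2a, DESeq, DESeq2 and GRCm38 are named in the submitters' processing notes; the counting program, annotation and strand setting are not given in the sources used here. Symbols and coordinates came from GENCODE M21, promoters from RefSeq on GRCm38.p6. The members and gene lists were chosen with earlier results of these data known. Counts were fitted with edgeR 4.0.16 in R 4.3.3: filterByExpr with a minimum count of 10 kept 14181 genes; TMM factors, 6 group means, no block, robust quasi-likelihood F tests, 12 comparisons, adjusted p threshold 0.05, common dispersion 0.163. The SE is the log2 difference over the square root of F. Log2 CPM used a prior count of 2. The fit was tested on simulated data. Alternatives used DESeq2 1.42.0, limma 3.58.1 voom with quality weights, median-ratio factors, other filters, only the libraries compared, removal of abundant RNA, a block for the replicate number, and fits with 1 library left out in turn. Named list genes were at most the 4 with the largest difference per list among those called, at 10 CPM or more and without overlap, of which some are printed, plus Lyz1, Csf1r and the sorting antigens. Replicate numbers 2, 3 and 6 of the sorted cells were shared in the labels, and deviations from group means correlated within numbers by 0.56 to 0.74 between fractions and 0.27 to 0.59 between sorts, but by 0 to 0.03 in bone marrow, so blocked values stand beside results whose call they change. Permutation tests used scipy 1.17.1 and figures matplotlib 3.10.9. A floor is 3 counts over a group. Some genes similar to members are not reported here.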

Additional observations from a re-analysis of the deposited data

Results flagged for a closer look

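The fraction difference of Spi1, the gene of PU.1, passed a test between sorted cells and bone marrow, but lost the call in most fits without 1 library. In bone marrow the log2 difference of polysomal from total RNA was -1.80 ± 0.33. In total RNA of bone marrow replicates 1, 2 and 3 Spi1 stood at 29.6, 45.8 and 59.9 CPM, and in polysomal RNA at 12.6, 14.5 and 11.9 CPM, so polysomal values were lower in 3 of 3. LY6C replicates 2, 3 and 6 gave 55.5, 40.6 and 30.9 CPM in total and 58.5, 50.1 and 44.5 CPM in polysomal RNA. LY6G gave 46.8, 42.8 and 39.2 and 53.3, 48.3 and 67.6. Spi1 was thus higher in polysomal RNA in 6 of 6 pairs, which 16.8% of all genes were. The difference of log2 differences was 2.07 ± 0.44 for LY6C (edgeR adjusted p = 0.0462) and 2.20 ± 0.44 for LY6G (adjusted p = 0.0304) against the same bone marrow libraries. The LY6G value was 2.04 to 2.5 without 1 library and lost its call in 9 of 12 such fits and in 1 of 8 other settings (limma voom, adjusted p = 0.066). For LY6C the call was lost in 10 of 12 such fits and in 4 of 8 other settings.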

How the results depend on the processing

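Of 186 counts of called members recomputed under alternatives, 184 stayed within 1.5 times the main count. The exceptions were polysomal against total RNA in bone marrow, with 1 member called in place of 0 both with at least 50 counts in 3 libraries and with the replicate block. Leaving out 1 library gave 4 to 6 members called for LY6C and 4 to 5 for LY6G against bone marrow in polysomal RNA, 3 to 4 and 3 to 5 in total RNA, and 0 in the other 8 comparisons. With the replicate block 5 members were called for LY6C and 7 for LY6G polysomal RNA against bone marrow; it changed no call other than those printed above. Over all genes, the number called for LY6C against bone marrow total RNA was 3963, and 1959 with only the libraries compared; for LY6G it was 4374, and 6638 with limma voom. With no filter the 0 called between the sorts became 76 in total and 88 in polysomal RNA, the 0 between fractions 56 in LY6C and 29 in LY6G, and the 0 for the sorts' fraction differences 5. The 481 between bone marrow fractions became 129 with limma voom, 200 with median-ratio factors, 145 with only the libraries compared and 767 with the replicate block, and 125, 238 and 257 without polysomal replicate 1, total replicate 2 and polysomal replicate 3. The 48 and 59 genes whose fraction difference in LY6C and LY6G differed from that in bone marrow ranged from 4 and 19 (only the libraries compared) to 183 and 203 (DESeq2) in the other settings, and from 1 to 95 and 12 to 106 without 1 library. The 17 differences that passed kept their direction in all 132 values from other settings and all 102 without 1 library, and 7 of the latter lost the call, all Cd68 in total RNA or C1qa in LY6G polysomal RNA. Of the list genes named with a passed test, 14 kept direction and call in every alternative run, with Cebpb at 3.89 to 5.50 and Cd163 at -9.36 to -6.69 without 1 library, and Spi1 is described above. Without the third bone marrow library Cd68 has 0 counts there in total RNA, and its fitted value of 12.89 is no estimate. Reversals were confined to uncalled differences: C1qb in LY6C against bone marrow polysomal RNA with limma voom (-0.65), with the replicate block (-0.01) and without LY6C replicate 6 (-0.98), C1qc there without LY6C replicate 3 (0.03), and, without LY6C polysomal replicate 6, C1qb between the sorts (0.18) and C1qa between LY6C fractions (-0.24). Over all fits without 1 library these 4 ranged from -0.98 to 0.76, -1.99 to 0.03, -1.55 to 0.18 and -0.24 to 1.81. The cause was not tested. The C1qb share in LY6C polysomal RNA was 73.2% with counts not divided by length. Lyz2 is among the abundant genes and has no value without them. Depth limits bone marrow total RNA, where 6 of 9 members held at most 13 counts.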
